A study of Homo sapiens with 6 samples.

Results

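The HSP70 family genes are the chaperone genes HSPA1A, HSPA1B, HSPA1L, HSPA2, HSPA4, HSPA5, HSPA6, HSPA8 and HSPA9, 9 of 19974 genes that RefSeq lists as protein-coding on GRCh38.p14. For each gene, every listed NRF2 peak with its summit inside the gene or within 50 kb of either end was taken. Peaks of different libraries that overlapped by at least 1 bp were joined into regions, which gave 6 of the 19331 regions of the series on chromosomes 1 to 22 and X. These 6 regions held 6 of 4098 peaks of vehicle 1, 6 of 7308 of vehicle 2, 5 of 3882 of CDDO-Im 1 and 6 of 12244 of CDDO-Im 2. The family was chosen by its listed peaks in these libraries, their positions and tags, so its peak values are descriptions and carry no test.

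The binding of NRF2 was mapped with the antibody D1Z9C in the human microglial line HMC3, by sequencing the DNA that the antibody pulled down (ChIP-seq). The vehicle group and the group given CDDO-Im, a triterpenoid that activates NRF2 (30 nM for 4 h), had 2 libraries each, named by the sample titles, since the treatment text is the same for every sample. The vehicle itself is not named. Nothing says that the libraries of a group came from separate cultures, so their spread may be technical. The 2 input samples were not analysed here. Peak lists hold no expression level, so the cell type could not be checked by its markers.

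HSP70 proteins bind unfolded stretches of other proteins and release them in a cycle driven by ATP, with HSP40 proteins that deliver clients and exchange factors that renew the nucleotide. HSPA1A and HSPA1B are near-identical, stress-inducible copies that lie side by side in the major histocompatibility complex, next to HSPA1L, which is best known from the testis. HSPA2 is also abundant in male germ cells, and HSPA6 is induced almost only by severe stress. HSPA8 is the constitutive cytosolic form, HSPA5 (BiP) that of the endoplasmic reticulum and HSPA9 (mortalin) that of mitochondria, while HSPA4 belongs to the HSP110 branch, which acts as an exchange factor. Heat shock genes are driven through heat shock elements by HSF1, whereas NRF2 binds antioxidant response elements with a small MAF protein.

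The upstream sequences of HSPA1A and HSPA1B are shown first because they let a reader see how alike these copies are before their start sites. Most of the peaks lie on these copies. They are the 250 bases before each start site from RefSeq (GRCh38.p14, plus strand), at chr6:31815293-31815542 and chr6:31827488-31827737, and capitals mark bases that differ or have no partner in a global alignment.
HSPA1A: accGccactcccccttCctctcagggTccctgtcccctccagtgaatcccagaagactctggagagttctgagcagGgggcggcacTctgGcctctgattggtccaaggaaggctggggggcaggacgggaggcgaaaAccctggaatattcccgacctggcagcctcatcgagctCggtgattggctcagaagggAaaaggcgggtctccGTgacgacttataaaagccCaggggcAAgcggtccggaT
HSPA1B: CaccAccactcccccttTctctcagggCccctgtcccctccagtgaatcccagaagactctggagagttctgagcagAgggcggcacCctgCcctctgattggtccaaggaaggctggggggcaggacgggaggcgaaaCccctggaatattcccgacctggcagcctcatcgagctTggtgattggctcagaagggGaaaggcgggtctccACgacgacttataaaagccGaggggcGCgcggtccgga
These upstream sequences were identical at 235 of 251 alignment columns (93.6%). The peaks lie inside the genes, where the identity of the copies was not compared. The other 35 pairs of family members were identical at 47.8% to 55.3% of columns under the same alignment, each read in its gene's direction. This includes 51.8% for HSPA1A and HSPA1L, whose windows overlap by 241 bp but were read on opposite strands, so it understates their likeness. The start sites of HSPA1A and HSPA1B were 12195 bp apart. HSPA1L runs in the opposite direction from a start site 260 bp from that of HSPA1A.

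The upstream sequence of HSPA6 (chr1:161524290-161524539, plus strand) is shown because, of the 9 promoters, it was the one that matched the core of the antioxidant response element. Capitals mark that match and 2 AP-1 sites, of which 1 lies inside the match.
HSPA6: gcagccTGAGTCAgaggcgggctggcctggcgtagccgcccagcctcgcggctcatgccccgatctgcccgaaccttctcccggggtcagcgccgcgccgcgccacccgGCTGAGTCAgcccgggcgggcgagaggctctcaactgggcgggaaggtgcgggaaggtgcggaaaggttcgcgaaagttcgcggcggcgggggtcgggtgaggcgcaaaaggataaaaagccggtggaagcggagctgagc
All 9 members had an entry in the promoter table, which covers 250 bases before to 50 after the start. Both strands were searched for the response element core TGACNNNGC, the AP-1 site TGANTCA, the heat shock element of 3 units (GAA and TTC in turn, with NN between units, starting with either) and its form of 2 units, the last added after the sequences were seen. Over 35114 promoters of 300 bases, these were found in 13.3%, 7.71%, 0.49% and 13.5%. The HSPA6 core match lay at bases -141 to -133 from the start, on the minus strand. HSPA6 and HSPA8 held the 3-unit heat shock element, HSPA8 at 2 places, and HSPA5 held an AP-1 site. Only exact units were counted, so an element with an inexact unit was not found by this search. HSPA1A, HSPA1B, HSPA1L, HSPA6, HSPA8 and HSPA9 held the 2-unit form, at the same bases for HSPA1A and HSPA1L, whose windows overlap by 241 bp. HSPA2 and HSPA4 held none of the 4 motifs. No listed peak of any library overlapped one of the 9 promoter windows. HSPA6 had no listed peak within 50 kb, so the promoter with the match was not among the listed places.

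Library totals are not in the lists. Tags at a summit were therefore solved from its fold enrichment and its −log10 p, and the lowest recovered background of a library, its genome-wide background, stood for depth. This background was 0.316 and 0.315 tags in the vehicle libraries and 0.332 and 0.367 tags in the CDDO-Im libraries. The median listed peak had between 7 and 9 tags, and where the background was lowest, 4 tags sufficed for a listing in every library. Megabases with more than 20 regions, 77 in all, are called dense, and none of the 6 regions lay in one.

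NRF2 peaks of the family lay inside 3 genes, HSPA1A, HSPA1B and HSPA2, and nowhere else within 50 kb of any member. HSPA1A and HSPA1B had 2 regions each, listed in all 4 libraries. HSPA2 had 2 regions, of which the one farther from its start was listed in all 4 libraries and the nearer one in all but CDDO-Im 1. HSPA1L had no summit inside. Its nearest peak lay 918 bp outside, in HSPA1A, and all 4 regions within 50 kb of it were those of HSPA1A and HSPA1B. Thus 4 of 9 members counted as having a region of both CDDO-Im libraries, and the same 4 one of both vehicle libraries and one of all 4 libraries. Over all protein-coding genes the shares were 11.6%, 1.81% and 1.78%, and 31.5% had a peak of any library. The rule used these peaks, and 3 of the 4 members share them, so nothing is read from the count. HSPA1A and HSPA1B add no independent evidence to each other.

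**Figure D1:**
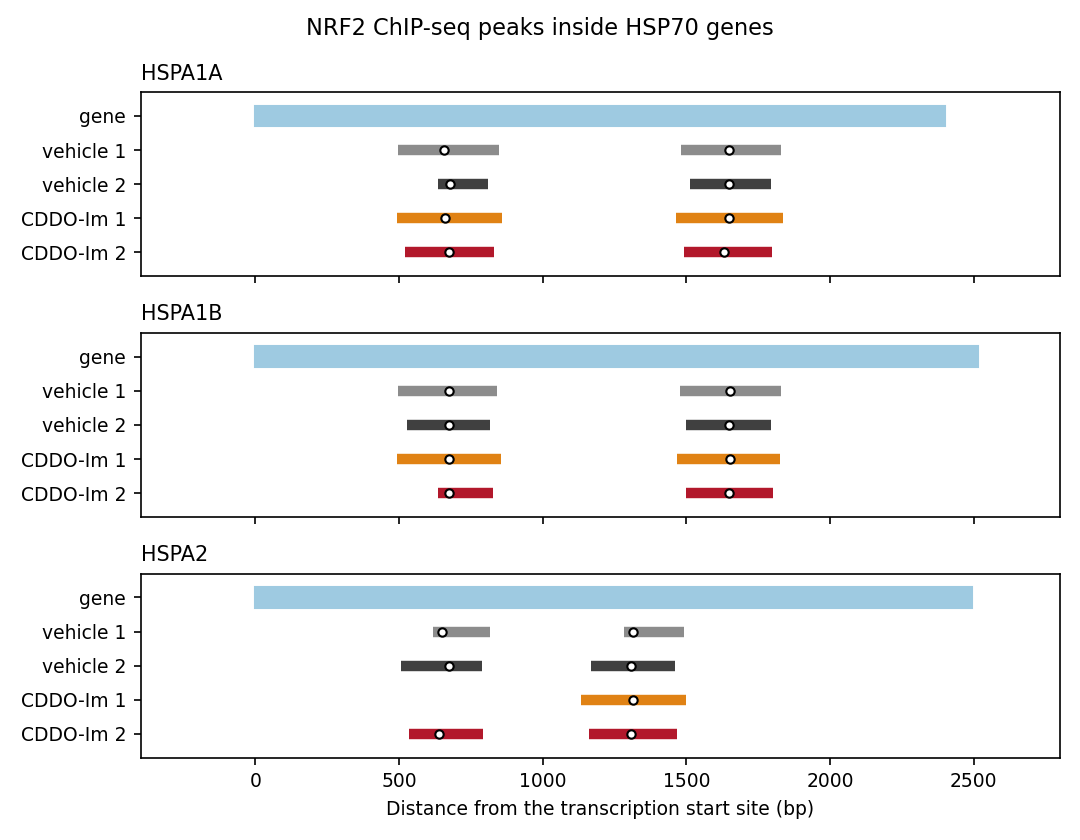
Peaks of each library (bars, with the summit as a circle) along HSPA1A, HSPA1B and HSPA2, by distance in bp from the transcription start site. The blue bar runs from that start site to the end of the gene. In every library the summits of HSPA1A and HSPA1B sit at nearly the same distances from their starts, and in the 3 libraries with both HSPA2 peaks those summits lie closer together.

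The peaks lay within the transcribed part of the genes and not at their starts. In HSPA1A the nearer summit, called upstream here, was 658, 676, 659 and 674 bp from the start in vehicle 1, vehicle 2, CDDO-Im 1 and CDDO-Im 2, an order kept throughout. The downstream summit was at 1647, 1648, 1649 and 1630 bp. In HSPA1B the upstream summit was at 672, 674, 673 and 673 bp, and the downstream summit at 1651, 1647, 1652 and 1647 bp. The copies thus carried their peaks at matching places. In HSPA2 the upstream summit lay at 648 and 672 bp in the vehicle libraries and 640 bp in CDDO-Im 2, close to the distance in HSPA1A. Its downstream summit lay at 1315, 1306, 1314 and 1306 bp, nearer to the start than in the other genes. These distances are from the start in the promoter table, since the RefSeq gene record of HSPA2 (chromosome 14, 64535905 to 64543237) begins farther out. HSPA1A (chromosome 6, 31815543 to 31817942, 2400 bp) and HSPA1B (31827738 to 31830254, 2517 bp) are known to have no introns, so their summits are exonic. The tables used here give no exons, and coding and untranslated parts were not separated. No other RefSeq gene of any type held these summits.

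A region of all 4 libraries lay inside 0.556% of protein-coding genes. Among the 4382 protein-coding genes no longer than HSPA2 (7333 bp), a length limit chosen after the values were seen, 3 (0.0685%) held one, and they were HSPA1A, HSPA1B and HSPA2. At least 2 such regions lay inside 3 of all 19974 genes (0.0150%), namely HSPA1A, HSPA1B and DUX4, a gene of a tandem repeat. Since the family was chosen for its peaks, these counts describe the lists and are no test. The 8 other protein-coding genes within 50 kb of the HSPA1A cluster (MSH5, SAPCD1, VWA7, VARS1, LSM2, NEU1, SLC44A4 and EHMT2) held no summit in any library, nor did ZBTB25, ZBTB1 and PPP1R36 around HSPA2.

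HSPA1A encodes the inducible HSP70 itself. Its upstream region (chromosome 6, 31816035 to 31816400) had 12 and 10 vehicle tags, against 17 and 17 after CDDO-Im, where 13 tags also fit the values of vehicle 1. Over background these were 38.0 and 31.8 against 51.3 and 46.3, so both CDDO-Im values exceeded both vehicle values. The group means of log2 values differed by 0.49, or 1.40-fold. The deposited fold enrichment was 9.88, 8.37, 13.5 and 13.2, a value the authors give per peak. Its downstream region (31817006 to 31817380) had 14 and 19 vehicle tags, against 18 and 23 after CDDO-Im. Over background these were 44.4 and 60.4 against 54.3 and 62.6, and the groups overlapped, with a ratio of 1.13. The deposited fold enrichment was 11.4, 15.2, 14.3 and 17.6, with a −log10 q of 14.8, 23.2, 21.8 and 29.9.

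HSPA1B, which encodes the same chaperone, gave values in the same range. Its upstream region (31828229 to 31828594) had 12 and 15 tags under vehicle, where 13 also fit vehicle 1, and 15 and 17 with CDDO-Im. Over background these were 38.0 and 47.7 against 45.2 and 46.3, so the CDDO-Im libraries fell between the vehicle libraries. The downstream region (31829206 to 31829567) had 19 and 20 vehicle tags, against 13 and 23 after CDDO-Im, or 60.2 and 63.6 against 39.2 and 62.6 over background. Here CDDO-Im 1 was the lowest library, and the ratio was 0.801, on the other side of 1 from the downstream region of HSPA1A. Without CDDO-Im 1 the log2 ratio was 0.02 in place of -0.32. The deposited fold enrichment was 9.88, 12.2, 12 and 13.2 upstream and 15.2, 14.4, 10.5 and 15.9 downstream.

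HSPA2 is a separate gene on chromosome 14, and its upstream sequence was 51.7% identical to that of HSPA1A. Identity inside the genes, where the peaks lie, was not compared. The downstream region of HSPA2 (64541873 to 64542239) had 15 and 19 vehicle tags, against 20 and 18 after CDDO-Im. Over background these were 47.5 and 60.4 against 60.3 and 49.0, so the groups overlapped and the ratio was 1.01. The deposited fold enrichment was 11.1, 14.6, 14.4 and 13.3. Its upstream region (64541249 to 64541558) was the weakest of the 6, with 8 and 9 tags under vehicle, 8 in CDDO-Im 2 and no listed peak in CDDO-Im 1. An unlisted site can still hold tags, so occupancy in CDDO-Im 1 was not detectable here and not shown to be absent. The −log10 q of the 3 listed peaks was 4.28, 6.55 and 5.31.

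**Figure D2:**
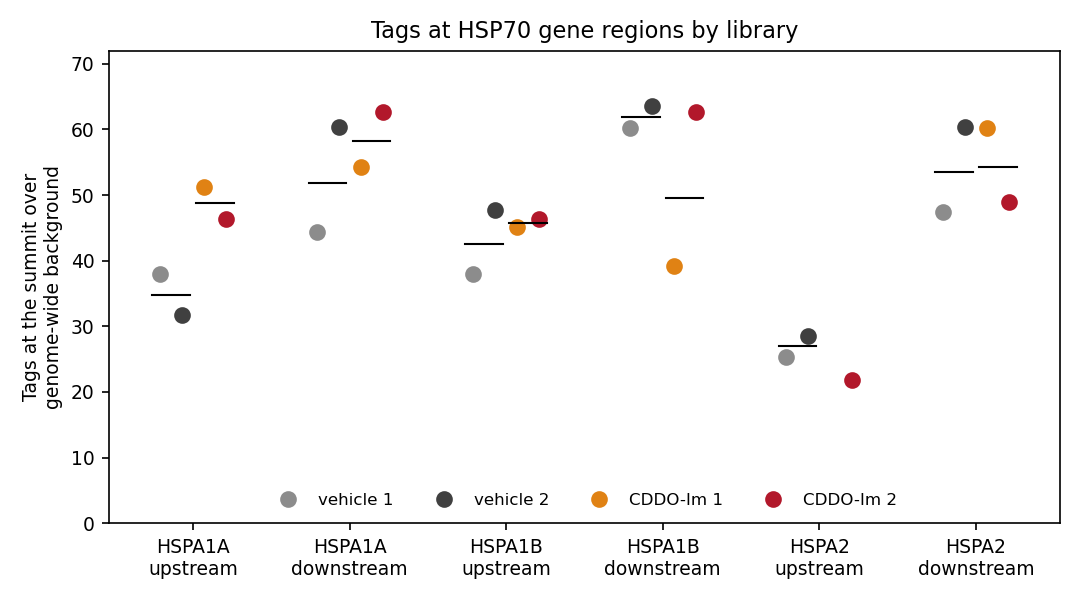
Tags at the summit divided by the genome-wide background of the library, for the 6 regions (points, 1 per library, and black lines for group means on the log2 scale where both libraries list a peak). Only the upstream region of HSPA1A has both CDDO-Im points above both vehicle points, and the HSPA2 upstream region has no point for CDDO-Im 1.

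The rank of the family's peaks within a library differed between sites. The downstream peaks of HSPA1A, HSPA1B and HSPA2 had a higher fold enrichment than 97.6%, 98.9% and 97.5% of the vehicle 1 peaks outside dense megabases, and 97.8%, 97.3% and 97.4% of those of vehicle 2. In CDDO-Im 1 the shares were 84.9%, 72.1% and 85.2%, and in CDDO-Im 2 they were 85.9%, 83.0% and 77.5%. The lists differ in length, with 1216 and 1276 vehicle peaks and 3249 and 4795 CDDO-Im peaks outside dense megabases, so these ranks show no change at the genes. Upstream, the shares for HSPA1A were 95.9% and 83.2% in the vehicle libraries and 82.8% and 76.3% in the CDDO-Im libraries, and those for HSPA1B 95.9%, 95.1%, 78.1% and 76.3%. The HSPA2 upstream peak ranked lowest, at 69.2% and 73.7% under vehicle and 33.4% in CDDO-Im 2.

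The family's regions of all 4 libraries had about the same tags in both groups, unlike most such regions outside dense megabases and like most inside them. Of the 5, 1 (HSPA1A upstream) had both CDDO-Im values above both of vehicle. Outside dense megabases, 230 regions had a peak in all 4 libraries, and 87.0% of them did. Ratios of CDDO-Im to vehicle ran from 0.801 to 1.40 in the 5 regions, with a median of 1.07. The median over the 230 regions was 3.21, with quartiles of 2.35 and 3.89. Inside dense megabases, 203 regions had a median ratio of 0.896, with quartiles of 0.831 and 0.98. With tags over background per base of the shortest listed peak, the downstream region of HSPA1A and the upstream region of HSPA1B also had both CDDO-Im libraries higher, with ratios of 1.17 and 1.11. The members were chosen with these values known, so this contrast was not tested, and 2 libraries against 2 could give no exact two-sided permutation p under 0.333.

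Ratios this low were common among all regions of all 4 libraries and mostly lay in dense megabases. There, 199 of 203 regions had a ratio no higher than that of the HSPA1A upstream region. Of these, 87 also had a mean level over the 4 libraries no higher than that of HSPA1B downstream, the family's highest. Outside dense megabases, the regions with so low a ratio were mostly stronger than those of the family. Of the 230 regions, 30 had a ratio no higher than that of the HSPA1A upstream region, the family's highest. Of these, 23 had a higher mean level than any of the 5 family regions. Most of the 23 lay outside protein-coding genes, such as one 3717104 bp from LINC02798 with 291 to 341 tags. A few lay inside, such as a DUX4 region with 85 to 91 tags. At a mean level no higher than the family's highest lay 73 regions, of which 7 had so low a ratio. These were the 5 of the family and 2 others. One was inside PWP1 (chromosome 12, 107695808 to 107696177), with 11 and 11 vehicle tags, against 10 and 18 after CDDO-Im. The other lay 74 bp outside TMEM131L (chromosome 4, 153466095 to 153466473), with 15 and 17 against 16 and 14 tags. This split by level was chosen after the values were seen.

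**Figure D3:**
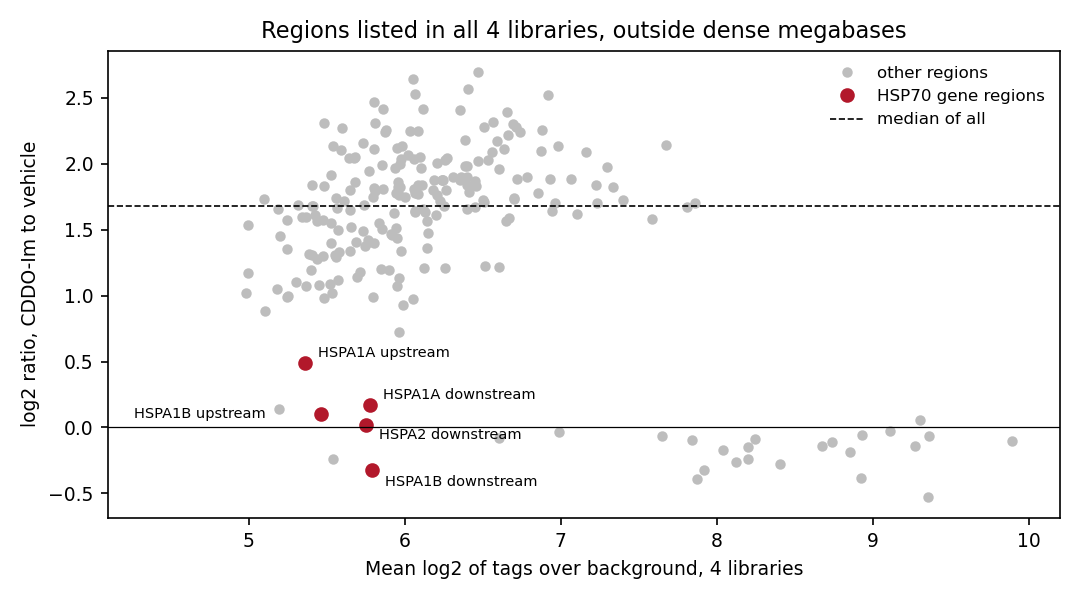
Each point is 1 of 230 regions outside dense megabases with a peak in all 4 libraries, by mean log2 of tags over background (x axis) and log2 ratio of CDDO-Im to vehicle (y axis). The 5 HSP70 regions (red) lie between -0.32 and 0.49, below the dashed median of all regions and to the left of most other points near 0.

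The regions most like those of the family over the 4 libraries, by the smallest Euclidean distance of log2 tags over background among all regions of all 4 libraries, were mostly in dense megabases. Of the 3 nearest to each of the 5 regions, 15 in all, 9 lay in dense megabases and 3 were regions of the family. A dense one was the nearest to HSPA1A upstream (0.51), HSPA1A downstream (0.26) and HSPA1B downstream (0.29), and all 3 nearest to HSPA1B downstream were dense. HSPA1B upstream was second for HSPA1A upstream, at a distance of 0.61. The downstream regions of HSPA1A and HSPA2 were among the first 3 of each other, at 0.40. The TMEM131L region was the nearest to HSPA1B upstream (0.47) and second for HSPA2 downstream (0.51). A region 185170 bp from TNFAIP3 (8, 9, 16 and 22 tags) was the third for HSPA1A upstream, at 0.72. The dense ones lay 570736 bp or more from the nearest protein-coding gene.

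The HSPA1A and HSPA1B sites were also listed on alternate sequences of chromosome 6, which the gene rule does not reach. At 4 such sequences, 4 regions stood at the same spacings as on chromosome 6, within 40 bp of each. On chromosome 6 itself the summits were 0, 981, 12201 and 13177 bp from the first. No other sequence in the lists had this set of spacings. Every one of these 16 further sites was listed in all 4 libraries. In vehicle 1 they were all 16 peaks on alternate sequences of chromosome 6. In vehicle 2, CDDO-Im 1 and CDDO-Im 2 they were 16 of 17, 20 and 35. The gene table does not cover these sequences, so the sites are known by their spacing alone. This search was added after the data were seen.

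The 10 placements of each site had similar tags. At the upstream site, tags ran from 12 to 17 in vehicle 1, 10 to 16 in vehicle 2, 15 to 22 in CDDO-Im 1 and 12 to 21 in CDDO-Im 2, with means ± SD over placements of 13.8 ± 1.81, 13 ± 2, 17.6 ± 2.46 and 16.3 ± 2.63. At the downstream site they ran from 13 to 21, 12 to 24, 13 to 28 and 19 to 25, with means of 16.7 ± 2.67, 17.6 ± 3.44, 21.0 ± 4.99 and 22.6 ± 1.96. The 13 tags of HSPA1B downstream on chromosome 6 in CDDO-Im 1 were the lowest of the 10 placements of that library. Whether the placements share reads cannot be told from peak lists, and the sources used here do not say how reads with several matches were treated. Placements are therefore not replicates, and the differences between HSPA1A and HSPA1B are uncertain.

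**Figure D4:**
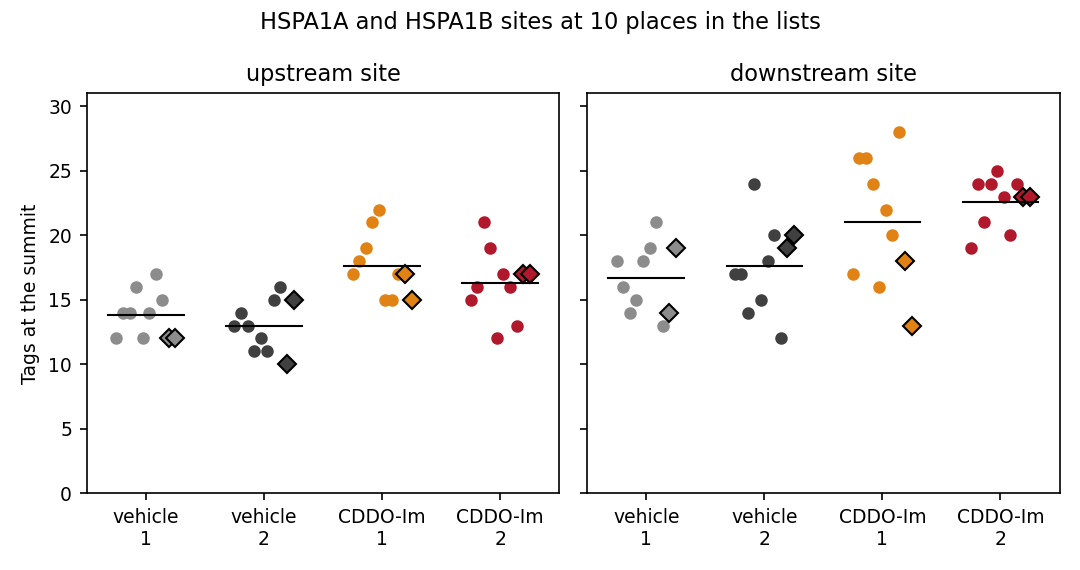
Tags at the summit of the upstream and downstream sites at 10 places, HSPA1A and HSPA1B on chromosome 6 (diamonds) and on 4 alternate sequences (circles), by library. Black lines are means over the 10 places, which run from 13 to 17.6 upstream and from 16.7 to 22.6 downstream.

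Summed over the 10 placements, the sites held many more tags than any single entry. The upstream sum was 138 and 130 vehicle tags, against 176 and 163 after CDDO-Im. The downstream sum was 167 and 176 against 210 and 226. For scale, the stronger region of HMOX1, a classical NRF2 target, had 36 and 46 vehicle tags, against 114 and 188 after CDDO-Im on chromosome 22 alone. It was the strongest region of both CDDO-Im libraries near the known targets counted below. Others were weaker, with 49 and 104 tags after CDDO-Im at FTH1 and 10 and 12 at ME1. The HMOX1 value is from a single region, so its level is not comparable with sums over 10 placements. Divided by the background of a single position, the upstream sums were 437 and 413 against 531 and 444, a ratio of 1.14. The downstream sums were 529 and 559 against 633 and 615, a ratio of 1.15. Only these ratios, not the levels, can be set beside the values of single regions, since each sum covers 10 placements. Both CDDO-Im values exceeded both vehicle values at each site, but at the upstream site they did not when the background was taken per base of the shortest listed peak (ratio 1.18). If placements shared reads counted more than once, these sums would be too high, which was not tested.

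The other 5 members had no listed peak within 50 kb in any library. The nearest peak of any library lay 52977 bp from HSPA8, 54454 bp from HSPA5, 223071 bp from HSPA4, 280677 bp from HSPA9 and 398849 bp from HSPA6. The first of these, just outside the limit, was listed in vehicle 1 alone with 6 tags. The one near HSPA5 lay inside GAPVD1, with 12 and 17 tags after CDDO-Im and no vehicle listing. For HSPA4, HSPA6 and HSPA9 the nearest region of both CDDO-Im libraries was at least 695960 bp away. At these depths an unlisted site is below the caller's threshold and not shown to be unoccupied.

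Chaperone, partner and heat shock factor genes lay near regions of both CDDO-Im libraries, or peaks of any library, about as often as other genes. The 5 lists covered HSP70 relatives and partners, other chaperones, and heat shock factors with the HSF1 partner HSBP1. Of their 54 genes, 6 (11.1%) had a region shared by the CDDO-Im libraries within 50 kb, against 11.6% of all protein-coding genes. A peak of any library lay within 50 kb of 18 (33.3%), against 31.5%. A region of both vehicle libraries lay that near to 2 (3.70%), against 1.81%, and one of all 4 libraries to 2 (3.70%), against 1.78%. Each time these were HSPB1 and HSBP1, outside the HSP70, HSP40 and partner lists. Of the 54, 0 held a region of all 4 libraries inside the gene, where the share over all genes was 0.556%. In the further HSP70 superfamily, 1 of 7 genes had a region shared by the CDDO-Im libraries and 0 had one shared by the vehicle libraries. That gene was HSPA13, an HSP70-like protein of the microsomes, with a region 5355 bp outside the gene (17 and 28 tags) that neither vehicle library listed. HSP40 co-chaperones had 2 of 14 and 0. DNAJB4 held its region inside the gene (10 and 19 tags), and DNAJA2 had one 3100 bp outside (15 and 24 tags). Exchange factors and other partners had 1 of 13 and 0, through GRPEL1, the mitochondrial exchange factor, whose region lay inside the neighbouring gene TBC1D14.

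HSP90, chaperonin and small heat shock protein genes had 1 of 15 for each group. The list of HSF1, HSF2, HSF4, HSF5 and HSBP1 had 1 of 5 for each group. The first was HSPB1 (HSP27), through a region inside YWHAG, 36532 bp away, with 7 and 14 tags under vehicle against 32 and 60. The second was HSBP1, a binding partner of HSF1 and not itself a heat shock factor. Its region lay 16426 bp away, with 11 and 10 against 26 and 35 tags. At both, each CDDO-Im library had more tags than each vehicle library, unlike the regions inside HSPA1B and HSPA2. Known NRF2 targets had 9 of 12 for CDDO-Im and 4 of 12 for vehicle. The lists were chosen with earlier results known, so these shares are descriptions beside the background.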

How the data were processed

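Aligner BWA 0.7.17, peak caller MACS2 2.2.7.1 and bcl2fastq 2.15.0 stand in the submitters' processing notes, beside the builds hg38 and GRCm38. The handling of the control, threshold, duplicates and reads with several matches was not given in the sources used here. Sequence names in the lists are those of hg38. Each library has a list of its own, per the peak names in the files. For each peak the deposited files hold a fold enrichment (ratio), a −log10 p, a −log10 q and a score, of which the score was not used. The summit is column 2 plus column 10, written 1-based.

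Tags were recovered as whole numbers for which the fold is tags plus 1 over background plus 1 and p the Poisson tail above the tags, allowing a deviation of 0.001 plus 0.0002 times the value. A unique solution existed for 97.7% to 99.4% of a library's peaks. Otherwise the match nearest to, and not below, the genome-wide background was taken. Recovery and region classes were tested on simulated data. No test between groups was made. The members and lists were chosen with earlier results of these data known. Named were all members, their regions, the nearest genes, the 3 most alike regions and up to 4 genes of each list. Python 3.11.15, pandas 2.3.3, SciPy 1.17.1 and Biopython 1.88 were used. Protein sequences and the sequence under the peaks were not used here.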

Additional observations from a re-analysis of the deposited data

How the results depend on the processing

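The members with a region numbered 4 for both CDDO-Im and 4 for both vehicle libraries at distances of 5 and 10 kb, at a −log10 q of at least 5 or 10, and with summits within 150 bp in place of overlap. At 100 kb the CDDO-Im count was 5, with HSPA5 added. Without each library in turn, the members stayed at 4 for either group. The 5 regions of both CDDO-Im libraries became 6 without CDDO-Im 1, and the 6 of both vehicle libraries became 4 at a −log10 q of at least 10. The log2 difference between groups of the library medians over the 5 shared regions was -0.05 and lay between -0.27 and 0.18 without each library. It was 0.10 for raw tags, 0.00 per base of the shortest peak and 0.09 for the deposited fold enrichment. The SD between replicates, 0.22, was larger but comes from 2 libraries per group. It rests mostly on the vehicle medians (44.4 and 60.4 over background, against 51.3 and 49.0 for CDDO-Im). The medians fall on different regions, such as HSPA1A upstream in CDDO-Im 1 and HSPA2 downstream in CDDO-Im 2. The sign of the difference depends on this summary, since the median of the 5 region ratios was 1.07. Summing the placements of HSPA1A and HSPA1B and leaving out HSPA2, an alternative chosen after seeing the data, moved the difference of medians to 0.19. The set of sites changed as well, so the shift cannot be credited to the summing alone. Without CDDO-Im 1, the log2 ratio at HSPA1B downstream went from -0.32 to 0.02, so that value rests on 1 library. Peaks of 8 to 23 tags limit the precision of every ratio. Paired by the replicate numbers of the titles (replicate block), a comparison added after seeing the data, the difference was 0.21 for number 1 and -0.30 for number 2. The mean was again -0.05, and no label says that a number marks a shared batch. For number 2 the value is that of HSPA2 downstream (60.4 for vehicle against 49.0 over background). There the HSPA1A regions were higher with CDDO-Im (31.8 against 46.3 and 60.4 against 62.6), and those of HSPA1B slightly lower. These differences of medians thus do not describe the 5 regions as a set.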

Other observations

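Cell type marker genes were looked up in the same lists. Of 10 microglia markers, 2 lay within 50 kb of a region shared by the CDDO-Im libraries and 0 within 50 kb of one shared by the vehicle libraries. PTPRC, the leukocyte phosphatase CD45, had a region inside the gene (6 and 16 tags) and another 10472 bp outside (10 and 11 tags), both unlisted in the vehicle libraries. The region counted for CD68, a lysosomal protein of macrophages, lay inside FXR2. Of 8 mesenchymal and 7 astrocyte and oligodendrocyte markers, 0 had a region of both libraries of either group. Over all protein-coding genes the shares were 11.6% for CDDO-Im and 1.81% for vehicle, so nothing is read from these counts. These counts say nothing of expression.

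DUX4, the other gene with at least 2 regions of all 4 libraries inside it, had 85, 91, 86 and 87 tags at one and 96, 101, 102 and 103 at the other, in the order of the libraries above.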
